A study of Mus musculus with 16 samples.

Results

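This account follows 8 genes linked to the Bowman glands and to the mucus that covers the olfactory epithelium: the transcription factors Sox9 and Sox10, the secreted proteins Bpifb3, Lyz1, Muc5b, Obp1a and Obp2a, and the water channel Aqp5. They were chosen by name, with earlier results of these data known, as were the marker lists used below. Each has 1 probe set, so the 8 make up 8 of the 19505 genes measured. The samples came from mice carrying the S100a5-tauGFP reporter, in which green fluorescent protein is made under the control of S100a5, a gene of olfactory sensory neurons that is known to respond to activity. All 24 mice, of both sexes and 7 to 12 weeks old, spent 40 h in chambers under an air flow of 3.1 L per min, and pulses of 10 s were given every 20 min after the first 26 h. The 4 groups, each of 4 samples, were GFP+ cells after octanoic acid, GFP- cells after octanoic acid, GFP+ cells after clean air and GFP- cells after clean air. Each sample was RNA of cells sorted from the dissociated olfactory mucosa of 3 pooled mice, so a single mouse cannot be followed. With 24 mice in pools of 3, both sorted samples of a treatment and number were taken to come from the same pool of mice. The whole mucosa was the starting material, with no step that picked out glands.

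Bowman glands lie in the connective tissue under the olfactory epithelium, and their ducts open onto its surface. Their cells secrete mucins, water, antimicrobial proteins and small lipid-carrying proteins, among them lipocalins that bind odorants, and the cilia of the sensory neurons lie in this mucus. Sox9 and Sox10 mark gland and duct cells in the mouse nose, but Sox9 is also made in some other epithelial cells and in cartilage, and Sox10 in the glia that wrap the olfactory nerve.

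Signals are log2 values as the authors deposited them. The negative controls had a median of 6.20, taken as the background, with 5.80 and 6.77 the lowest and highest medians of an array. Their 95th percentile was 10.4, so some control probes shine above many genes. Every array correlated with the mean of the others of its group at 0.979 or more across genes. S100a5 itself averaged 16.60 ± 0.34 in GFP+ cells and 15.07 ± 0.32 in GFP- cells after octanoic acid, and 16.45 ± 0.23 in GFP+ cells and 15.13 ± 0.18 in GFP- cells after clean air (SD, n = 4 each), so the gene that drives the reporter was higher in the cells sorted as GFP+ (limma adjusted p = 0.000139 and 0.000496). The median difference between GFP+ and GFP- cells over all genes was 0.11 with either treatment, and it moved to 0.42 with octanoic acid and 0.38 with clean air when each array was centred on its own median.

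Of the 8 genes, Sox9, Lyz1 and Bpifb3 were lower in GFP+ than in GFP- cells of the same pools, with octanoic acid and with clean air alike, and no gene was higher. The test was limma on the within-pool differences, with Benjamini-Hochberg adjustment over all genes at 0.05. By the same rule 10.9% of all genes were lower and 6.26% higher with octanoic acid, and 9.58% were lower and 5.83% higher with clean air. That balance depends on the scaling: with arrays centred on their median, 7791 genes were higher and 1715 lower with octanoic acid, and 6082 higher and 1571 lower with clean air. As deposited, 1221 were higher and 2126 lower with octanoic acid, and 1138 higher and 1868 lower with clean air. Without pool 4 of the same treatment, only 621 were higher with octanoic acid and 619 with clean air. The median difference of the 8 genes was -0.14 with octanoic acid and -0.58 with clean air, beside 0.11 for all genes with each treatment. Without octanoic acid pool 3, whose GFP+ array had the highest summed signal of sustentacular cell markers (16.99 log2), and clean air pool 4, where Obp2a peaked, the count stayed at 3 lower and 0 higher with each treatment. However, Bpifb3 lost its call with octanoic acid when some single pools were left out and under some scalings, as given below. With GFP+ and GFP- arrays taken as unpaired, it was called with neither treatment. Sox10, Obp1a, Aqp5 and Muc5b stayed at or under the background in all groups, so the label of a gland signature rests on only some of its genes here.

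**Figure D1:**
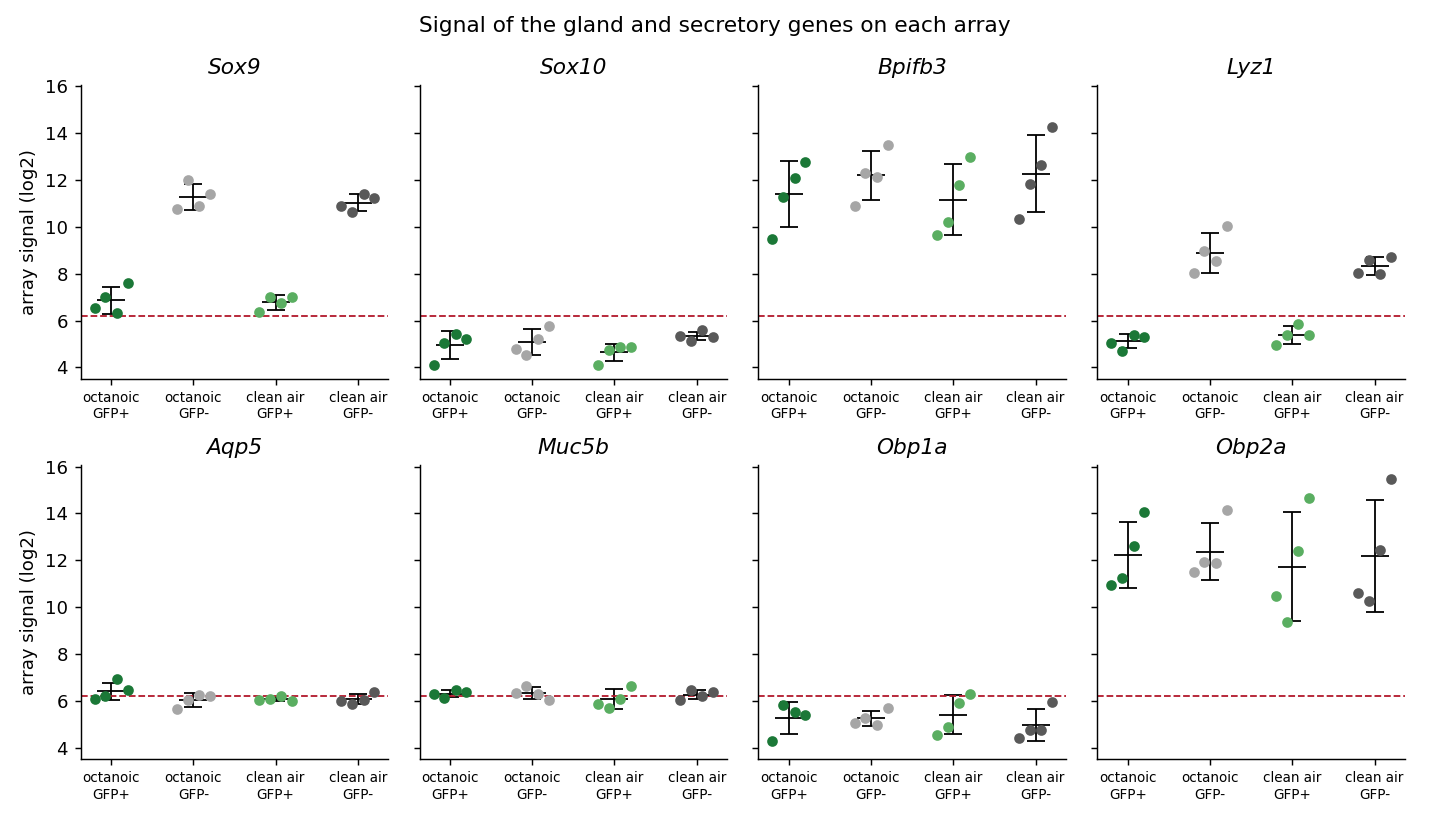
Log2 signal of the 8 genes on every array, with 4 pools per group; bars show the mean ± SD, and the dashed line is the background of 6.20. Sox9 and Lyz1 separate GFP+ from GFP- cells, Bpifb3 and Obp2a are far above the line in both with wide spread between pools, and the other 4 genes lie along or under it.

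Sox9, a transcription factor that gland and duct cells need for their development, had the largest difference of the 8. Its signal in GFP+ cells after octanoic acid was 6.53, 6.99, 6.34 and 7.60 in pools 1, 2, 3 and 4, against 10.78, 11.99, 10.88 and 11.39 in the GFP- cells of those pools. After clean air it was 6.36, 7.01, 6.73 and 7.02 in GFP+ cells, against 10.89, 10.62, 11.40 and 11.24 in GFP- cells. All GFP- arrays were above all GFP+ arrays, which lay close to the background. The within-pool difference was -4.40 ± 0.51 with octanoic acid (21.0-fold lower, limma adjusted p = 9.75e-08) and -4.25 ± 0.47 with clean air (19.1-fold lower, adjusted p = 1.43e-07; SD, n = 4 pools each). In sorted bulk samples, fewer cells of a type and less RNA per cell cannot be told apart. Sox9 kept its call under each of the 17 alternative settings tried for each treatment. Some of these could not move the difference. Each gene has 1 probe set, and pools of the other treatment enter only the estimate of spread.

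Other cell types that make Sox9 were looked at through their own markers. Of 14 cartilage markers, 2 were higher and 1 lower with octanoic acid and 1 was higher with clean air (median differences 0.29 and 0.12). Without octanoic acid pool 2 the higher count with octanoic acid was 4, and without clean air pool 1, 3 or 4 that with clean air was 0. Without octanoic acid pool 4, 1 was lower with clean air. Under the background in both kinds of cells lay 10 of them, Col2a1 and Acan included. A group mean above it was seen for 4 in GFP+ cells and 3 in GFP- cells. In GFP+ and GFP- cells after octanoic acid and then after clean air, Col2a1, the main cartilage collagen, averaged 5.29, 5.13, 4.97 and 4.82. Acan, the core proteoglycan of cartilage, averaged 5.90, 5.56, 5.84 and 5.54 in the same order. The summed cartilage signal was 10.1 to 10.8 log2 in GFP+ cells and 9.73 to 10.5 in GFP- cells after octanoic acid, and 10.1 to 10.2 in GFP+ cells and 9.97 to 10.3 in GFP- cells after clean air. Of 8 markers of microvillous and tuft cells, a sparse epithelial type with ion-channel signaling, 6 were lower in GFP+ cells with octanoic acid and 7 with clean air (median differences -1.39 and -2.12). Their summed signal was 9.22 to 9.82 in GFP+ cells and 11.8 to 12.3 in GFP- cells after octanoic acid, and 9.32 to 10.0 in GFP+ cells and 11.7 to 12.4 in GFP- cells after clean air. Trpm5, the cation channel that defines many of these cells, averaged 5.75 in GFP+ cells against 10.66 in GFP- cells after octanoic acid (at least 22.0-fold lower, limma adjusted p = 5.42e-08). It averaged 5.58 in GFP+ cells against 10.57 in GFP- cells after clean air (at least 20.6-fold lower, limma adjusted p = 6.09e-08). The parts of cartilage and of microvillous and tuft cells in the Sox9 difference were not tested.

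The keratins Krt18 and Krt8, filament proteins of simple epithelia including glands, were lower in GFP+ cells as well. They belong to a list of 18 other gland and mucosal secretion genes. Of these, 13 were not called with octanoic acid and 12 with clean air (median differences -0.0017 and 0.0027). Krt18 averaged 6.86 ± 0.53 in GFP+ cells and 10.07 ± 0.30 in GFP- cells after octanoic acid (9.29-fold lower, limma adjusted p = 4.77e-07), and 7.31 ± 0.24 in GFP+ cells and 10.15 ± 0.26 in GFP- cells after clean air (7.17-fold lower, adjusted p = 1.49e-06; SD, n = 4 each). Krt8 differed by -2.51 with octanoic acid and -2.73 with clean air, at least 3.97-fold and 4.08-fold lower.

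The 3 genes whose pattern over the 16 arrays was closest to that of Sox9, among 12111 genes with a group above the background, were Sh2d7, Kit and Pla2g7. Likeness was the root mean square difference of signals centred on each gene's own mean, and it was 0.36, 0.38 and 0.38 log2. For Sox9, as for Lyz1 below, genes with a like gap between GFP+ and GFP- cells come out close by this measure. Kit encodes a receptor tyrosine kinase and Pla2g7 a secreted phospholipase.

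Sox10, the relative of Sox9 that marks gland cells and glia, was under its own array's background on all 16 arrays. It ranged over 4.10 to 5.43 in GFP+ cells and 4.53 to 5.78 in GFP- cells after octanoic acid, and over 4.11 to 4.89 in GFP+ cells and 5.15 to 5.59 in GFP- cells after clean air. The groups overlapped after octanoic acid (difference -0.13, limma adjusted p = 0.727) and did not after clean air (difference -0.69, limma adjusted p = 0.0594), and no fold is given for signals at background. Sox8, the third gene of this subfamily, averaged 6.07 in GFP+ cells and 6.32 in GFP- cells after octanoic acid and 5.94 in GFP+ cells and 6.17 in GFP- cells after clean air, with no call. Of 10 glia markers measured, 8 were under the background in both kinds of cells, and 2 were lower with each treatment (median differences over the list 0.08 and 0.20). Erbb3, a growth factor receptor, was one of these, with signals at background, and without octanoic acid pool 2 the count with octanoic acid was 1. The lipid carrier Apoe, which many cell types make, was lower in GFP+ cells, with a difference of -2.42 with octanoic acid (limma adjusted p = 0.0122) and -2.60 with clean air (limma adjusted p = 0.00826).

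Lyz1 encodes a lysozyme, an enzyme that cuts bacterial cell walls and is secreted by glands, Paneth cells and leukocytes. Its promoter is shown because Lyz1 has the largest difference between the sorted cells among the secreted proteins of the 8 genes. It lies at chr10:117292819-117293118 on the minus strand of GRCm38.p6, from 250 bases before to 50 after the start site, and it holds none of the letters searched (TATAAA for the TATA box, AACAAT for the SOX family, and GAGGAA for the leukocyte factor PU.1, on both strands, none of them part of another).
Lyz1: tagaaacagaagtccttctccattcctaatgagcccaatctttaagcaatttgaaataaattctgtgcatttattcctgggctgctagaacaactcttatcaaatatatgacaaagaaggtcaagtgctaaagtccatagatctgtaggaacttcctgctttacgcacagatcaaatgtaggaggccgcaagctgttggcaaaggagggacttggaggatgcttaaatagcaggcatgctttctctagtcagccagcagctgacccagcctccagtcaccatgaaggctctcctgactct
Over all 32851 mouse promoters of this length in the RefSeq table, 13.6% hold the TATA box letters, 10.7% those for SOX factors and 28.3% those for PU.1, and the absence of a match says only that those letters are not in this window.

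Lyz1 was measured at 5.06, 4.71, 5.40 and 5.32 in GFP+ cells of octanoic acid pools 1 to 4, against 8.02, 8.98, 8.55 and 10.05 in GFP- cells. In the clean air pools it was at 4.94, 5.39, 5.86 and 5.39 in GFP+ cells, against 8.04, 8.59, 7.98 and 8.73 in GFP- cells. Each GFP+ array was under its own background and each GFP- array above it, with no overlap. Among GFP- arrays, only that of octanoic acid pool 4 exceeded the 95th percentile of its own negative controls (10.05 against 9.76). The difference of -3.78 ± 0.86 with octanoic acid made Lyz1 at least 6.50-fold lower in GFP+ cells (limma adjusted p = 2.72e-06), and that of -2.94 ± 0.56 with clean air at least 4.39-fold lower (limma adjusted p = 2.29e-05; SD, n = 4 pools each). The call held under each of the 17 alternative settings per treatment, some of which could not move the difference, as said for Sox9.

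Lyz2, the close copy of Lyz1 that macrophages and neutrophils make in quantity, averaged 8.64 ± 1.12 in GFP+ cells and 15.99 ± 0.67 in GFP- cells after octanoic acid (163-fold lower, limma adjusted p = 3.46e-07). After clean air it averaged 8.36 ± 1.10 in GFP+ cells and 15.52 ± 0.86 in GFP- cells (143-fold lower, limma adjusted p = 4.53e-07; SD, n = 4 each). How far Lyz2 RNA binds the Lyz1 probe set was not tested. Lyz2 was the only other lysozyme gene of 8 measured to be lower in GFP+ cells, and 6 of the 8 were under the background in both kinds of cells (median differences 0.16 with octanoic acid and 0.08 with clean air). Lyzl1 passed the test as higher with octanoic acid, at 4.47 in GFP+ cells and 3.90 in GFP- cells, both at background; the count of higher lysozymes was 0 without octanoic acid pool 1, 3 or 4 and 2 without pool 2.

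White blood cell markers moved with Lyz1. All 11 leukocyte markers measured were lower in GFP+ cells with each treatment, with median differences of -4.51 with octanoic acid and -4.17 with clean air. Their summed signal was 9.49 to 11.1 in GFP+ cells and 14.5 to 16.7 in GFP- cells after octanoic acid, and 9.64 to 10.7 in GFP+ cells and 14.5 to 15.6 in GFP- cells after clean air. Of 12 neutrophil markers, 11 were lower with octanoic acid and 12 with clean air, and their summed signal was 9.48 to 12.4 in GFP+ cells and 19.1 to 20.5 in GFP- cells after octanoic acid, and 9.83 to 11.1 in GFP+ cells and 18.6 to 19.9 in GFP- cells after clean air. The genes closest in pattern to Lyz1 were Apbb1ip, the class I antigen-presenting molecule H2-K1 and the cytokine Osm, at root mean square differences of 0.30, 0.33 and 0.33 log2. The part of white blood cells in the Lyz1 difference was not tested. Lactoferrin, Ltf, an iron-binding defence protein of both gland secretions and neutrophil granules, averaged 6.08 ± 0.64 in GFP+ cells and 13.96 ± 1.09 in GFP- cells after octanoic acid (at least 189-fold lower, limma adjusted p = 1.78e-07). It averaged 5.42 ± 0.35 in GFP+ cells and 13.19 ± 1.32 in GFP- cells after clean air (at least 127-fold lower, limma adjusted p = 2.12e-07; SD, n = 4 each).

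**Figure D2:**
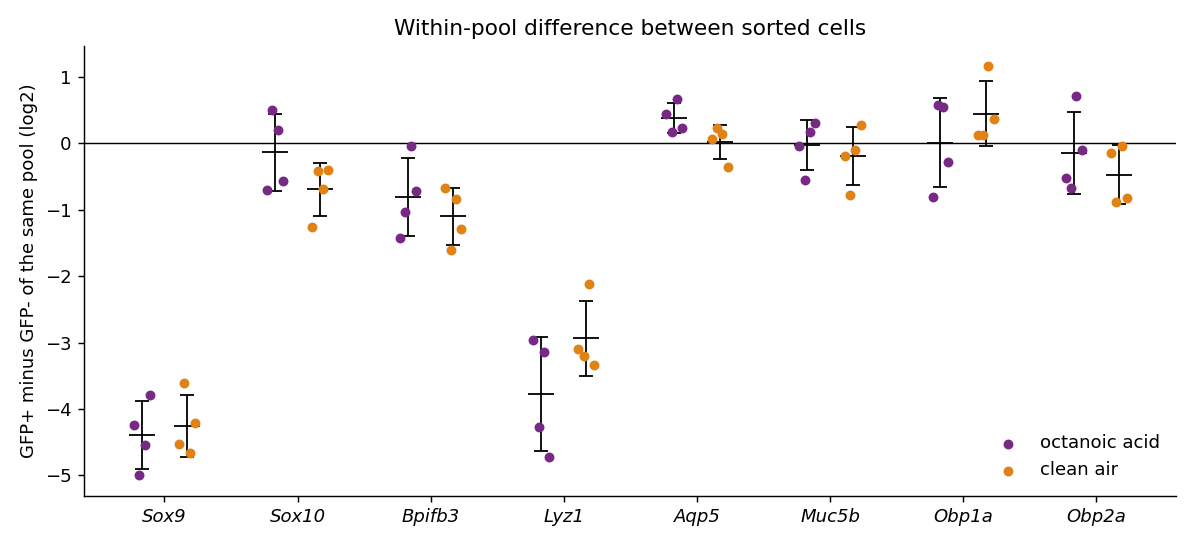
Difference in log2 signal between GFP+ and GFP- cells of the same pool for the 8 genes, with 4 pools after octanoic acid and 4 after clean air; bars show the mean ± SD, and 0 means equal signal. Sox9 lies between -5.00 and -3.61, Lyz1 between -4.72 and -2.11 and Bpifb3 between -1.61 and -0.03, while the other genes lie between -1.25 and 1.16.

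Bpifb3 and Obp2a, both on chromosome 2, were bright in GFP+ as well as GFP- cells and varied together between pools, so their promoters are shown. Bpifb3 encodes a secreted protein of the BPI fold, a family of lipid-binding proteins related to a bactericidal protein of neutrophils, and Obp2a encodes an odorant-binding lipocalin. The Bpifb3 window lies at chr2:153918144-153918443 and the Obp2a window at chr2:25699824-25700123, both on the plus strand of GRCm38.p6, with the matches to GAGGAA in Bpifb3 and to TATAAA in Obp2a in capitals.
Bpifb3: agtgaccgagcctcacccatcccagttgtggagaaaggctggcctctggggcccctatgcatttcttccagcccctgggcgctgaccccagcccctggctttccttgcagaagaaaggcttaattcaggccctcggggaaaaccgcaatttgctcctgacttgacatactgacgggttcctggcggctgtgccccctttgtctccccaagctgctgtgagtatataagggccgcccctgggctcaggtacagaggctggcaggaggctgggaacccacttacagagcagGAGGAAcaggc
Obp2a: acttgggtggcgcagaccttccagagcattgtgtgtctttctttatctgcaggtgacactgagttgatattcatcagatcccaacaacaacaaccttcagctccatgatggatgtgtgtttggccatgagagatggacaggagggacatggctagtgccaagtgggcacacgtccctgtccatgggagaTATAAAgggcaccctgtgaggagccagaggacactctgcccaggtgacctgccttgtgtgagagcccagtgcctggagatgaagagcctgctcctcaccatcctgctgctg
The match in Bpifb3 begins at position 40 and that in Obp2a at position -61, counted from the start site. AACAAT was found in neither window. Only exact letters were searched, so other forms, such as tatataag in the Bpifb3 window, are not marked. The absence of a match says only that those letters are not in the window. RefSeq lists another start site for Bpifb3, whose window holds no match. The promoter of Obp1a has TATAAA at position -30, and that of Aqp5 has no match.

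The signal of Bpifb3 after octanoic acid was 9.47, 11.28, 12.10 and 12.76 in GFP+ cells of pools 1 to 4, against 10.90, 12.30, 12.14 and 13.48 in GFP- cells. After clean air it was 9.66, 10.21, 11.80 and 12.99 in GFP+ cells, against 10.33, 11.82, 12.63 and 14.28 in GFP- cells. The groups overlapped, yet GFP+ was the lower of the pair in 4 of 4 pools with each treatment. The within-pool difference was -0.80 ± 0.59 with octanoic acid (1.74-fold lower, limma adjusted p = 0.0322) and -1.10 ± 0.43 with clean air (2.14-fold lower, limma adjusted p = 0.00564; SD, n = 4 pools each). The call with octanoic acid was lost without pool 1, 2 or 4 of that treatment (limma adjusted p = 0.145, 0.0928 and 0.0859) and with arrays centred on their median or on the olfactory receptors (0.0875 and 0.18). With GFP+ and GFP- arrays taken as unpaired, neither call was made (0.58 with octanoic acid and 0.471 with clean air).

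None of the 13 other BPI-fold genes passed the test in either direction, with median differences of 0.07 with octanoic acid and -0.10 with clean air, and 8 of them were under the background in both kinds of cells. Without octanoic acid pool 2, 1 was higher with octanoic acid, and without octanoic acid pool 3, 1 was lower with clean air. With arrays centred on their median, 4 were higher with octanoic acid and 1 with clean air. Scgb1c1, a secretoglobin secreted in the nose, behaved like Bpifb3 in the sort: it averaged 8.89 ± 1.09 in GFP+ cells and 10.28 ± 0.60 in GFP- cells after octanoic acid (2.62-fold lower, limma adjusted p = 0.00368). After clean air it averaged 8.56 ± 1.27 in GFP+ cells and 10.44 ± 1.16 in GFP- cells (3.67-fold lower, limma adjusted p = 0.000429; SD, n = 4 each). In the list of other gland genes, the one higher in GFP+ cells with clean air was Creb3l1, a transcription factor of secretory cells (1.80-fold higher, limma adjusted p = 0.0293), a call lost without clean air pool 2 or 4. Gpx6, a glutathione peroxidase of the olfactory mucosa, was lower in GFP+ cells with clean air (1.99-fold, limma adjusted p = 0.0101) and differed by -0.57 with octanoic acid (limma adjusted p = 0.114). Of the 18 other gland and mucosal secretion genes, 5 were lower and 0 higher with octanoic acid, and 5 lower and 1 higher with clean air, while 10 were under the background in both kinds of cells.

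Obp2a had signals of 10.96, 11.25, 12.61 and 14.07 in GFP+ cells of octanoic acid pools 1 to 4, against 11.48, 11.92, 11.90 and 14.17 in GFP- cells. In clean air pools it had 10.46, 9.38, 12.39 and 14.67 in GFP+ cells, against 10.60, 10.27, 12.43 and 15.49 in GFP- cells. Pool 4 was the highest in every group, and the sorted cells of one pool had similar signals. The difference between GFP+ and GFP- cells was -0.14 ± 0.62 with octanoic acid (limma adjusted p = 0.72) and -0.47 ± 0.44 with clean air (limma adjusted p = 0.222; SD, n = 4 pools each), so neither was called.

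Obp1a, a second odorant-binding lipocalin, was under its own array's background on all 16 arrays, at 4.27 to 6.31 over all groups. The 9 other lipocalins measured, among them Lcn3 and Lcn4 of the nasal and vomeronasal glands, had group means under the background in both kinds of cells with each treatment (median differences 0.28 and 0.29). In the pools numbered 4, however, the means of Lcn4 over both kinds of cells were 7.03 after octanoic acid and 7.93 after clean air, and those of Lcn3 were 6.23 and 7.72. For both genes pool 4 was the highest of its treatment, as for Obp2a. Lcn11 alone passed the test, as higher with octanoic acid (5.67 in GFP+ cells and 4.89 in GFP- cells, limma adjusted p = 0.0111), with both groups at background, and it lost the call without octanoic acid pool 4.

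Aqp5, the water channel of the apical membrane in secretory glands, averaged 6.41 ± 0.37 in GFP+ cells and 6.04 ± 0.28 in GFP- cells after octanoic acid, and 6.09 ± 0.08 in GFP+ cells and 6.07 ± 0.21 in GFP- cells after clean air (SD, n = 4 each). These values lie at the background, and neither difference was called (limma adjusted p = 0.128 and 0.95). Of the 11 other aquaporins, 3 were lower and 1 higher in GFP+ cells with octanoic acid, and 2 were lower with clean air (median differences 0.18 and 0.07). The count of 1 higher was 0 without octanoic acid pool 3 or 4 and 2 without pool 2, and without that pool 1 was higher with clean air. Aqp1, a water channel of blood vessels and red cells, averaged 6.25 in GFP+ cells against 8.91 in GFP- cells after octanoic acid (at least 6.16-fold lower, limma adjusted p = 0.000114), and 5.99 against 8.46 after clean air (at least 4.67-fold lower, limma adjusted p = 0.000228). Aqp9, found in leukocytes among other cells, passed the test as lower with signals at background. Aqp4 was lower (difference -0.87, limma adjusted p = 0.0338) and Aqp11 higher by 0.66 (limma adjusted p = 0.0197) with octanoic acid alone, but the test of the difference between treatments called no gene. Aqp3 was called with neither treatment (limma adjusted p = 0.677 with octanoic acid and 0.177 with clean air).

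Muc5b, a gel-forming mucin of airway and nasal glands, averaged 6.31 ± 0.15 in GFP+ cells and 6.34 ± 0.25 in GFP- cells after octanoic acid, and 6.07 ± 0.42 in GFP+ cells and 6.27 ± 0.19 in GFP- cells after clean air (SD, n = 4 each). It too lay at the background, with no call (limma adjusted p = 0.947 and 0.574). Of 7 other mucins measured, 0 were lower and 1 higher with octanoic acid, and 2 were lower and 0 higher with clean air (median differences 0.01 and 0.21). Without octanoic acid pool 3, the counts with octanoic acid became 2 lower and 0 higher. The higher count was also 0 without octanoic acid pool 4, and with clean air the lower count was 0 without clean air pool 1 and 1 without any other clean air pool. The higher one was Muc5ac, the mucin of goblet cells, at 5.30 in GFP+ cells and 4.31 in GFP- cells, both at background. The membrane mucins Muc1 and Muc20 were the lower ones, at least 2.45-fold and 2.01-fold lower in GFP+ cells with clean air (limma adjusted p = 0.00998 and 0.0418).

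Markers of other cells of the epithelium were set beside these. Of 10 sustentacular (supporting) cell markers, 2 were lower in GFP+ cells with each treatment, the sulfotransferase Sult1c1 and the receptor Notch2, and the median differences were -0.44 with octanoic acid and -0.80 with clean air. Without octanoic acid pool 3 the count was 5 with octanoic acid and 6 with clean air. It was 1 with octanoic acid without octanoic acid pool 1, 2 or 4 or clean air pool 4, and 1 with clean air without clean air pool 2, 3 or 4. Their summed signal was 13.57 to 16.99 in GFP+ cells and 14.9 to 15.6 in GFP- cells after octanoic acid, and 14.3 to 15.4 in GFP+ cells and 15.1 to 16.6 in GFP- cells after clean air. Of 12 mature neuron markers, 2 were higher with each treatment (median differences 0.23 and 0.23); 1 was left without octanoic acid pool 1 or 4 in the first, and without any 1 clean air pool in the second. Of 7 markers of ciliated respiratory cells, 0 were called with octanoic acid and 2 were higher with clean air, but leaving out any 1 clean air pool left 0 of them and leaving out octanoic acid pool 1 or 4 left 1. None of 5 basal cell markers was called with either treatment, and 1 was higher with clean air when clean air pool 3 was left out.

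The larger variation in Bpifb3 and Obp2a was between pools of mice. With the GFP+ and GFP- arrays of each pool averaged, the SD over the 8 pools was 1.76 log2 for Obp2a, rank 1 of 19505 genes, and 1.30 for Bpifb3, rank 6, while the median over all genes was 0.23. Sox9 and Lyz1 had 0.37 each, at ranks 2656 and 2687, and Obp1a had 0.54 at rank 526 with signals under the background. These ranks are a description of the 8 pools, and this spread was examined after seeing the data.

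**Figure D3:**
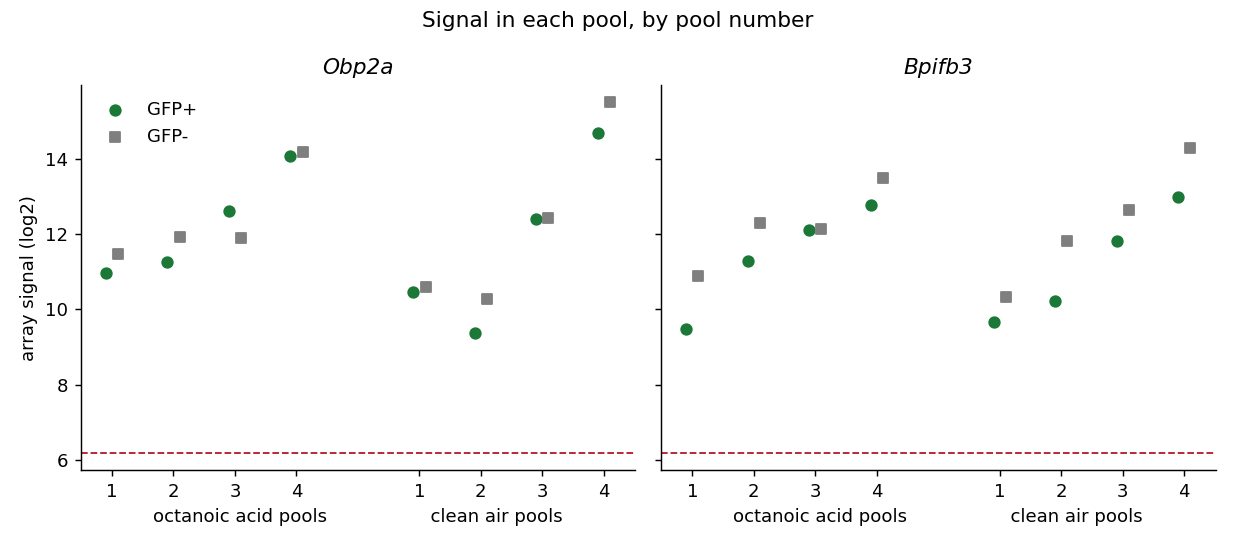
Log2 signal of Obp2a and Bpifb3 in GFP+ cells (circles) and GFP- cells (squares) of each numbered pool, after octanoic acid and after clean air; the dashed line is the background of 6.20. Within a pool, GFP+ minus GFP- lies between -0.89 and 0.71 for Obp2a and between -1.61 and -0.03 for Bpifb3. The pool means span 5.25 log2 for Obp2a and 3.64 for Bpifb3, and the pools numbered 4 are highest with either treatment.

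The highest pool was number 4 for both genes in all 4 groups, and the lowest for Bpifb3 was number 1 in all 4. The lowest for Obp2a was number 1 after octanoic acid and number 2 after clean air. From the lowest to the highest pool, Obp2a spanned 8.62-fold in GFP+ cells and 6.43-fold in GFP- cells after octanoic acid, and 39.0-fold in GFP+ cells and 37.2-fold in GFP- cells after clean air. Bpifb3 spanned 9.74-fold in GFP+ cells and 5.96-fold in GFP- cells after octanoic acid, and 10.0-fold in GFP+ cells and 15.5-fold in GFP- cells after clean air. With the 2 pools numbered 4 left out, the SD was 1.00 for Obp2a, at rank 13, and 0.97 for Bpifb3, at rank 18. Leaving out each pool in turn kept Obp2a at rank 1 or 2 and Bpifb3 between 5 and 11. In the octanoic acid pools alone, Obp2a had an SD of 1.29 at rank 10 and Bpifb3 1.22 at rank 13. In the clean air pools alone, Obp2a had 2.35 at rank 1 and Bpifb3 1.57 at rank 6. Over GFP+ arrays alone the ranks were 2 for Obp2a and 19 for Bpifb3, and over GFP- arrays alone 1 and 17.

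The labels do not say what a shared pool number means. A limma F test of the number on the pool means called 0% of the 19505 genes, with 1944 at an unadjusted p under 0.05. Bpifb3 had the smallest p of all genes there (limma adjusted p = 0.0844) and Obp2a ranked 15 (limma adjusted p = 0.119). The test was added after the data were seen, so these ranks restate the order of pools described above.

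Across the 8 pools the GFP- signals of Bpifb3 and Obp2a were correlated, with Pearson's r = 0.893 (exact permutation p = 0.00332, adjusted 0.0199 over the 6 pairs among Sox9, Lyz1, Bpifb3 and Obp2a) and Spearman's rho = 0.929 (exact permutation p = 0.00223, adjusted 0.0134). Without the 2 pools farthest from the median of Bpifb3, r was 0.783. In GFP+ cells of the same pools r was 0.897 (exact permutation p = 0.00253), rho was 0.905 (exact permutation p = 0.00456), and r without the 2 outermost pools was 0.997. The other 5 pairs had r of 0.42 to 0.598 in GFP- cells (exact permutation, adjusted p = 0.338). Their rho was 0.286 to 0.69 (exact permutation, adjusted p = 0.208 to 0.501). Without the 2 pools farthest from the median of Sox9 or Lyz1, their r was 0.413 to 0.77, so the upper end was near 0.783. A pool number holds only 2 pools and a treatment 4, too few for values within them. The permutations treated the 8 pools as exchangeable and took no account of treatment or pool number. In GFP+ cells only Bpifb3 with Obp2a was tested, on the same pools and without adjustment.

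The genes closest in pattern to Bpifb3 were Gpx6, Bpifb4 and Scgb1c1, at root mean square differences of 0.34, 0.52 and 0.58 log2, and those closest to Obp2a were Dmbt1, Bpifb4 and Bpifb3, at 0.58, 0.84 and 0.85. Dmbt1 encodes a secreted scavenger-receptor protein of mucosal surfaces. Its pool means were 6.38, 6.83, 6.85 and 8.88 after octanoic acid and 6.07, 5.94, 6.85 and 10.18 after clean air. Gpx6 had pool means of 9.71, 10.92, 11.19 and 12.24 after octanoic acid and 9.31, 10.06, 10.96 and 12.46 after clean air. In both genes, as in Bpifb3 and Obp2a, number 4 was the highest pool of each treatment. Both were picked for likeness over these same arrays, so a shared highest pool follows largely from that choice. The genes nearest to Aqp5 were Zfp599, Lrrc14 and Pramel1 (0.15, 0.16 and 0.16 log2) and those nearest to Muc5b were Pdgfb, Kifc5b and Ep400 (0.19, 0.20 and 0.20), where signals at background leave little pattern to match.

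Other BPI-fold genes also varied widely, and not all in the order of Bpifb3. Bpifb4, named above for its likeness to Bpifb3, and Bpifb6 were lowest in pool 1 and highest in pool 4 with each treatment. From pool 1 to pool 4, Bpifb4 went from 5.60 to 8.18 after octanoic acid and from 5.43 to 9.22 after clean air. Bpifb6 went from 5.87 to 7.15 and from 5.62 to 7.84, so pool 1 was under the background of 6.20 for both. Bpifb9b and Bpifb9a had another order of pools. Bpifb9b had pool means of 12.12, 14.32, 13.88 and 11.57 after octanoic acid and 12.67, 14.54, 11.67 and 15.09 after clean air, so octanoic acid pool 4 was its lowest and clean air pool 4 its highest. Bpifb9a, a paralog of Bpifb9b, had pool means from 8.97 in clean air pool 3 to 11.89 in clean air pool 4, and 9.03 in octanoic acid pool 4. Whether the probe sets of these paralogs share targets was not tested. Bpifb6, Bpifb9a and Bpifb9b were singled out after their values were seen. Among the 195 genes of widest spread, the top 1%, were 2 of the 8 genes, 4 of 13 other BPI-fold genes, 2 of 9 lipocalins and 4 of 18 other gland genes, and also 9 of 12 neutrophil, 4 of 11 leukocyte and 3 of 10 sustentacular cell markers, but 0 of 12 mature neuron markers.

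**Figure D4:**
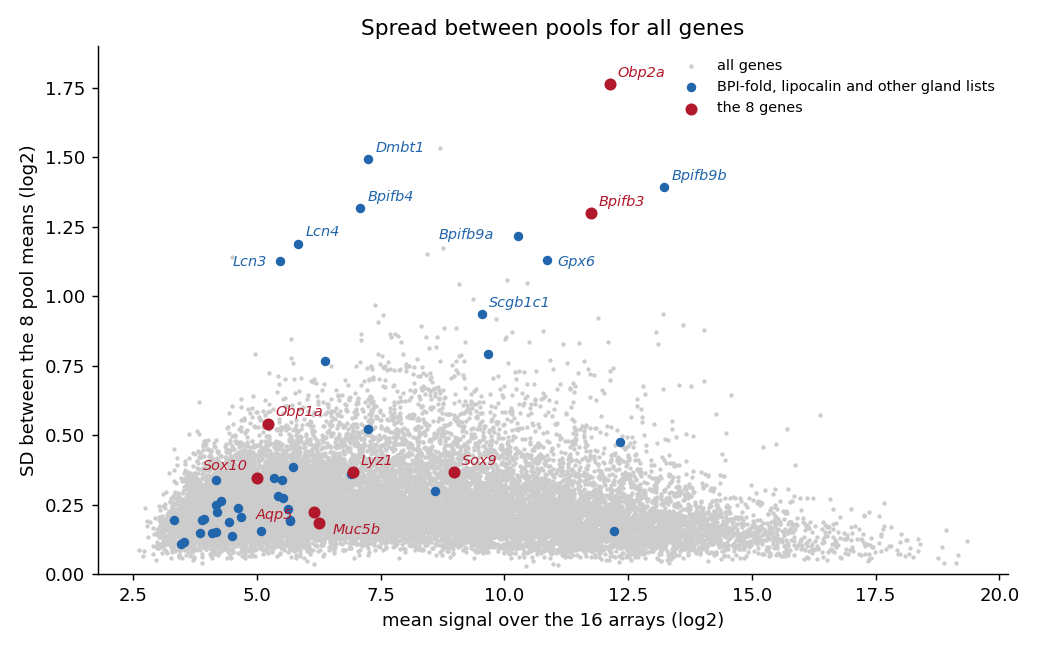
SD between the 8 pool means against the mean signal over the 16 arrays, both in log2, for all 19505 genes (gray), the BPI-fold, lipocalin and other gland lists (blue) and the 8 genes (red). Obp2a has the highest SD of all at 1.76 and Bpifb3 lies at 1.30, while the other 6 of the 8 genes lie within the gray cloud.

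Whether octanoic acid changed these genes was asked in 3 ways: in the GFP+ minus GFP- difference, in GFP+ cells and in GFP- cells. None of the 8 genes passed in any of them, and 0% of all genes did with limma, where 871, 716 and 741 genes had an unadjusted p under 0.05. For the 8 genes the limma adjusted p was 0.94 to 0.964 for the difference, 0.955 to 0.985 in GFP+ cells and 0.985 to 0.999 in GFP- cells.

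Within the difference, the effect of octanoic acid was -0.14 for Sox9 (95% interval -0.83 to 0.54), 0.30 for Bpifb3 (-0.41 to 1.01) and 0.33 for Obp2a (-0.40 to 1.06). It was -0.84 for Lyz1 (-1.75 to 0.07). In GFP- cells, octanoic acid minus clean air was 0.22 for Sox9 (-0.38 to 0.83), 0.56 for Lyz1 (-0.24 to 1.37), -0.06 for Bpifb3 (-1.65 to 1.53) and 0.17 for Obp2a (-1.99 to 2.33). In GFP+ cells it was 0.24 for Bpifb3 (-1.51 to 1.99) and 0.50 for Obp2a (-1.78 to 2.78). In GFP+ and in GFP- cells the intervals of Bpifb3 and Obp2a were the widest of the 8 genes in this fit, which does not use the pool numbers. With the number as a replicate block, they narrowed in GFP+ cells to -0.31 to 0.78 for Bpifb3 and -0.30 to 1.30 for Obp2a, and in GFP- cells to -0.62 to 0.49 for Bpifb3 and -0.70 to 1.04 for Obp2a. For Lyz1 the blocked interval was -1.48 to -0.20 in the difference (limma adjusted p = 0.781) and 0.07 to 1.06 in GFP- cells (limma adjusted p = 0.915). No gene was called with the block either.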

How the data were processed

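RNA of 16 sorted samples (50 to 100 ng each) was measured on Clariom S arrays. Signals were made with Affymetrix Expression Console, per the submitters' processing notes; its version, summary method and background step are not given in the sources used here. The deposited values were taken as log2 signals from their range (2.13 to 19.54). Of 28846 probe sets, 6640 were controls, 2634 had no gene name here and 67 were dimmer probe sets of a gene, which left 19505 genes, named through Entrez identifiers in the RefSeq table of GRCm38.p6.

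For each of 8 pools the GFP+ minus GFP- difference was formed. Two-sided tests with limma 3.58.1 (lmFit, then eBayes; R 4.3.3) covered its mean per treatment, its difference between treatments, and treatments within GFP+ and within GFP- cells, with Benjamini-Hochberg adjustment over all genes at 0.05. The fits were tested on simulated data. Nothing states that pools are independent litters or days, so p-values measure the spread between these pools; their number limits precision. A fold is given as "at least" when the dimmer group's mean did not exceed the background by its own SD (limit 1 SD); arrays below 6.20 then count as 6.20. Folds between groups that both failed this are omitted.

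Odor and vehicle pools share numbers. Deviations of same-numbered pools from their group means correlated at 0.179, 0.110, 0.237 and 0.100 for the GFP+ minus GFP- values; among GFP+ arrays at 0.371, 0.100, 0.219 and 0.138; among GFP- arrays at 0.408, 0.100, -0.0986 and 0.153. All 4 exceeded 0.1, some by less than 0.001, in the first and second set but not in the third. The comparisons were fitted without the number; blocked intervals stand beside them. Pairing of GFP+ with GFP- samples was inferred, since 24 mice in pools of 3 give 8 pools for 16 samples with matching treatment and number. Deviations of the GFP+ and GFP- arrays of pools 1 to 4 correlated at 0.389, -0.238, 0.357 and 0.0972 after octanoic acid. After clean air they correlated at 0.251, 0.152, 0.0742 and 0.226.

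The 8 genes and the 16 lists were chosen with earlier results of these data known. Named from a list were up to 4 genes past the threshold with the largest change, close relatives of the 8 genes, and the 3 genes nearest in pattern. Permutation tests of correlations used scipy 1.17.1. Alternatives were other scalings, a floor or filter at the background, the mean of probe sets, an intensity trend, left-out pools, and pairing. Promoters are RefSeq's; Sox9, Sox10 and Muc5b had none in the table. Among relatives, Obp1b, Obp2b, Muc6 and Muc19 were not analysed here.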

Additional observations from a re-analysis of the deposited data

Results flagged for a closer look

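In GFP- cells after octanoic acid, Obp2a was at 14.17 log2 in pool 4, and the next highest pool was at 11.92. The gap took up 0.837 of the group's whole range, above Dixon's 95% limit for 4 samples. Of 48 groups of 4 tested this was the only one past the limit, and chance passes about 1 in 20 such groups. Pool 4 was also the highest for Obp2a in the other groups, at 14.07 in GFP+ cells after octanoic acid, and at 14.67 in GFP+ cells and 15.49 in GFP- cells after clean air.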

How the results depend on the processing

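Over all alternatives for the 8 genes in the 5 comparisons, 600 values kept their direction and their side of the threshold, 7 lost a call, 6 gained one, 56 changed sign with no call before or after and 1 changed sign and became called. Some of the values that kept their direction could not have changed it. Each of the 8 genes has 1 probe set, and a left-out pool does not enter the GFP+ minus GFP- difference of the other treatment. With octanoic acid, 3347 genes were called between GFP+ and GFP- cells, against 9506 with arrays centred on their median and 10167 with values under the array background raised to it; with clean air 3006 were called, against 7653 with arrays centred on their median. The share called higher was 36.5% with octanoic acid and 37.9% with clean air as deposited, 56.1% and 50.4% with quantile normalization, 30.4% and 21.2% with receptor centring, and 80.4% and 43.1% with raised values. The count of the 8 genes called higher with octanoic acid was 0 as reported, 1 with median centring (Aqp5 at 0.68), 1 with quantile normalization (Aqp5 at 0.58) and 2 with raised values; with clean air it was 1 with median centring (Obp1a at 0.72). The last was Sox10 with octanoic acid, -0.13 as reported and 0.46 with raised values, where a gene under the background takes the difference between the arrays' backgrounds, as Obp1a did at 0.46. Sox10 with clean air was called lower with arrays centred on the olfactory receptors (-0.87, limma adjusted p = 0.0355) and without octanoic acid pool 2 (limma adjusted p = 0.0387). Other causes were not tested. A replicate block pairing odor and vehicle pools by number left 0 genes called in each of the 3 odor comparisons and changed no call. Signals at the background limit what can be said of Sox10, Aqp5, Muc5b and Obp1a.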

Other observations

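Of the 20 genes with the widest spread between pools, 9 others came from the lists above: Dmbt1, Bpifb9b, Bpifb4, Bpifb9a, Lcn4, Gpx6, Lcn3, Lcn2 and Scgb1c1. The rest included the olfactory receptors Olfr323 at rank 2 (SD 1.53), Olfr427 at 11, Olfr1176 at 14, Olfr160 at 16 and Olfr586 at 17, and also Mid1 at rank 9 (SD 1.17). Lcn4 and Lcn3 stood at ranks 8 and 13 with mean signals of 5.83 and 5.47 over all arrays, and in clean air pool 4 their means were 7.93 and 7.72, above the background of 6.20. These genes were named after their values were seen.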
